A study of Mus musculus with 2 samples.

Results

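Peptide-type enteroendocrine cells are the hormone-secreting cells of the gut epithelium that make peptide hormones rather than serotonin. Here they were 142 of the 9872 barcodes that passed the depth limits, or 1.44% (95% exact binomial interval, 1.21 to 1.69%). A barcode passed with at least 500 unique molecular identifiers (UMIs, each a captured RNA molecule), 300 genes and 1000 peak counts. A member then needed at least 5 summed UMIs of Chga, Chgb, Neurod1, Adcy2, Nrg1, Scn3a, Cacna1c, Rfx6 and Pax6, and fewer than 2 summed UMIs of Tph1 and Lmx1a, which mark the serotonin-making enterochromaffin cells. The 54 barcodes that met the first limit and held 2 or more UMIs of Tph1 and Lmx1a are called enterochromaffin-type, and they were kept among the 9730 other barcodes unless stated.

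All cells came from the small intestine of 1 mouse, 55 weeks old, with a 73% load of a mutation in TrnA, the alanine tRNA gene of mitochondrial DNA (mtDNA), per the labels. The epithelium was released with EDTA and TrypLE, stained for CD45, CD31, TER-119 and CD326 and with DAPI, sorted with gates that the labels do not state, fixed with formaldehyde, and split into an RNA library and an ATAC library of open chromatin by the 10x Multiome method. Both libraries share 1 list of 12363 barcodes. There was no replicate and no other animal was analysed here, and the labels do not say whether this mouse had colitis, so no comparison tests the mutation, and every interval covers counting error only.

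Enteroendocrine cells arise from crypt stem cells through a short-lived progenitor that expresses the transcription factor Neurog3. They sense nutrients, fire calcium-dependent action potentials and release hormones from dense-core granules packed with granins. Cells are traditionally named by their leading product, for example K cells for Gip, D cells for Sst and N cells for Nts, and many make several hormones at once.

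The genes that chose the class are a description and not a result. Rfx6, a transcription factor needed for enteroendocrine differentiation, gave 812 UMIs in 121 members, and Cacna1c, a pore subunit of L-type calcium channels, gave 435 UMIs in 118 members. Adcy2, an adenylyl cyclase, gave 563 UMIs in 98 members. The granin Chgb gave 254 UMIs in 65 members, the transcription factors Pax6 and Neurod1 gave 112 UMIs in 61 members and 110 UMIs in 60 members, and the sodium channel Scn3a gave 98 UMIs in 42 members. Chga gave 47 UMIs in 26 members and the growth factor Nrg1 gave 28 UMIs in 4 members. The summed count ranged from 5 to 46 UMIs with a median of 16. At the edge of the rule, 10 members had exactly 5 UMIs and 10 barcodes outside had 4, while 9 members had 1 UMI of Tph1 or Lmx1a and 5 barcodes outside had exactly 2. Of the 4 genes given as markers of the class (Neurod1, Rfx6, Pax6 and Scn3a, all part of the rule), at least 1 was detected in 137 members, 2 or more in 96, and none in 5. In 3 of those 5 the genes of tuft cells, a chemosensory epithelial type, held 29, 70 and 23 UMIs.

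The median member held 4435.5 UMIs, of which 2572 at the median were nuclear-encoded, while all other barcodes had medians of 5605 and 1528. Summed over the barcodes, mtDNA genes gave 47.7% of the UMIs of the class and 66.4% of those of the others. Levels are therefore given as counts per 1000000 nuclear-encoded UMIs (CPM). Members held a median of 7973 ATAC fragments, against 6752.5 in the others. RNA of other lineages was present in the class: the goblet list held 1 to 425 UMIs per member with a median of 8, the enterocyte list 1 to 287 with a median of 6.5, the Paneth list 1 to 36 with a median of 6, and the tuft list 0 to 70 with a median of 0. The lymphocyte list gave 2 UMIs in the whole class. In 27 members at least 1 of the 4 epithelial lists reached 20 UMIs. The part of this RNA in the results below was not tested beyond leaving those 27 members out.

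Gip, the incretin of K cells, was the most abundant hormone transcript of the class. Its 3947 UMIs made up 60.9% of the 6476 UMIs of the 9 hormones that reached 10 UMIs. It was followed by somatostatin (Sst) with 709, secretin (Sct) with 627, neurotensin (Nts) with 587 and cholecystokinin (Cck) with 238. Peptide YY (Pyy) gave 128 UMIs, ghrelin (Ghrl) 108, proglucagon (Gcg) 95 and amylin (Iapp) 37. Of the 32 hormone genes in the list, 19 had no UMI in the class, which allows at most 6.71 CPM, and Tac1 (9 UMIs), Insl6 (4), Nmb (1) and Gpha2 (1) were near 0.

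The number of members behind each hormone did not follow its UMI count. Gip and Sct were each detected in 76 members, or 53.5% (45.0 to 61.9%), but a positive member held a median of 24.5 Gip UMIs and up to 413, against 4 Sct UMIs and up to 65. Sst was detected in 16 members only, with a median of 34 UMIs and up to 153 in each. Nts was found in 33 members (median 5, up to 101 UMIs) and Cck in 34 (median 3, up to 74). Pyy was found in 21 members, Ghrl in 18, Iapp in 9 and Gcg in 5. A single member held 58.9% of all Gcg UMIs.

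Gip lies at chr11:96024532-96030831 on the plus strand (RefSeq, GRCm38), and on the minus strand lie Sst at chr16:23889573-23891342, Sct at chr7:141278329-141279174, Nts at chr10:102481756-102490418 and Cck at chr9:121489824-121495694.

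At least 1 of the 9 hormones was detected in 119 of 142 members (83.8%, 76.7 to 89.4%), and 82 members (57.7%, 49.2 to 66.0%) held 2 or more. The hormone UMIs of a member ranged from 0 to 420 with a median of 17.5. No hormone was detected in 23 members, 1 in 37, 2 in 28, 3 in 32, 4 in 13, 5 in 7 and 6 in 2. With at least 3 UMIs required for each hormone, 99 members held 1 or more and 57 held 2 or more.

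**Figure D1:**
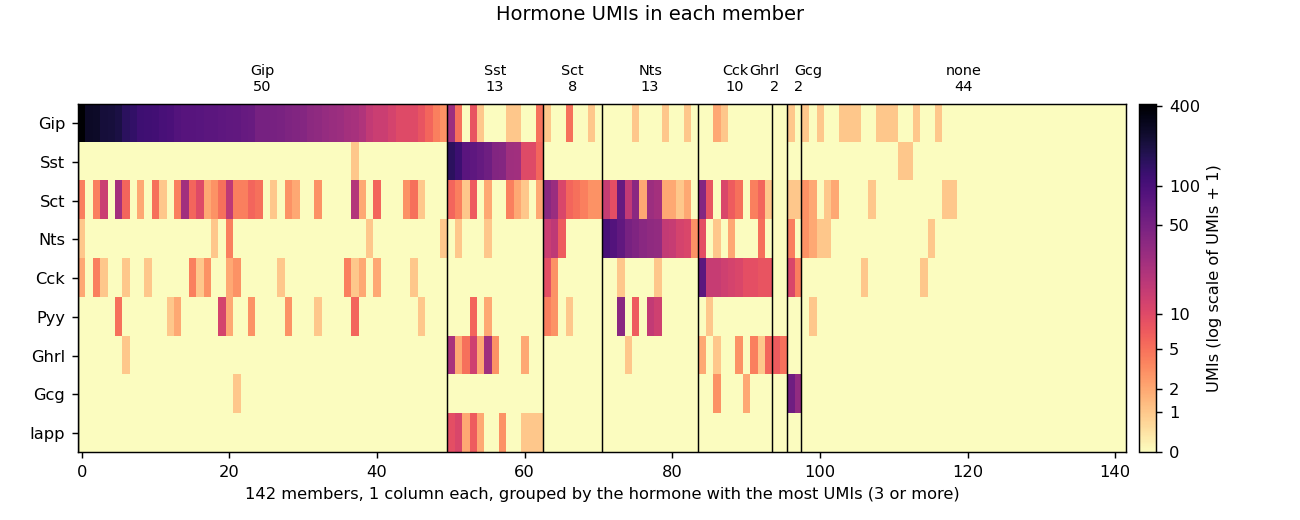
UMIs of 9 hormones (rows) in each of the 142 members (1 column each, colour on a log scale), grouped by the hormone with the most UMIs where it reached 3. The 50 Gip-led members form the widest block, Sct runs across most blocks, Iapp lies in the Sst-led block, and 44 columns at one end have no leading hormone.

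Gip stood at 8832 CPM in the class and 75.5 in all other barcodes, a 117-fold difference (95% interval of the ratio of counts, 110 to 124). The difference was 162-fold for Sst (139 to 190), 160-fold for Iapp (79.9 to 348), 63.4-fold for Ghrl (47.1 to 85.6) and 62.1-fold for Pyy (47.4 to 81.6). Gcg was 36.7-fold higher (27.8 to 48.4), Nts 36.3-fold (32.5 to 40.5), Cck 30.0-fold (25.4 to 35.4) and Sct 25.5-fold (23.1 to 28.1). Without the member that held most Gcg, the log2 ratio of Gcg went from 5.20 to 3.91. All 9 intervals lay above 2-fold, but these hormones were kept because they reached 10 UMIs in the class, which favours that direction. Below that limit, Tac1 had 9 UMIs in the class and 68 in the other barcodes. The counts were 1 and 50 for Nmb, 4 and 266 for Insl6, and 0 and 22 for Adm.

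Free RNA can place hormone UMIs in cells that do not make them, and its part here was not tested. Shares of positive barcodes were set beside those of 2446 barcodes with 20 or more UMIs of the enterocyte list. These were also required to have no UMI of the genes of the rule, which itself leaves out enteroendocrine cells. Single ones held up to 1931 goblet-list and 2194 Paneth-list UMIs, so these barcodes may not all be absorptive cells alone. Gip had a UMI in 15.6% of these barcodes, Sct in 10.3%, Nts in 6.05%, Cck in 4.09% and Sst in 1.96%, at a median depth of 7631.5 UMIs against 4435.5 in the class. At 3 or more UMIs, Gip was found in 7 of the 2446. After every barcode was thinned to 1000 UMIs, which left out 0 members and 8 enterocyte barcodes, Gip was detected in 41.5% of members and 2.46% of enterocyte barcodes. The thinned shares were 34.5% against 1.23% for Sct, 14.8% against 0.943% for Nts, 9.15% against 0.410% for Sst and 9.15% against 0.574% for Cck. Pyy and Ghrl were each found in 8.45% of thinned members, against 0.123% and 0.205%, and Iapp in 2.11% against no enterocyte barcode. The 9 hormones were chosen by their UMIs in the class, and all 9 thinned shares were higher in the class. Its barcodes were shallower than the enterocyte ones in UMIs of all kinds but deeper in nuclear-encoded UMIs (median 2572 against 1849), and thinning over UMIs of all kinds keeps that difference, since mtDNA took 47.7% and 68.8% of the summed UMIs. Per nuclear-encoded UMI, the whole hormone list stood at 14524 CPM in the class and 187 CPM in the enterocyte barcodes.

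Set against the enterochromaffin-type barcodes, the class differed in some hormones and not in others. Gip was 130-fold higher (68.6 to 285), Sst 70.3-fold (23.9 to 342), Ghrl 32.1-fold, Gcg 28.2-fold and Pyy 19.0-fold, and Iapp had 0 UMIs in the 54 enterochromaffin-type barcodes. Cck was 2.14-fold higher (1.49 to 3.19) and Nts 1.30-fold (1.08 to 1.58). These 2 ratios rest on few enterochromaffin-type barcodes: 134 Nts UMIs in 5 of them, 66 in 1, and 33 Cck UMIs in 3, 21 in 1. Nts was detected in 23.2% of members and 9.26% of the enterochromaffin-type barcodes, and Cck in 23.9% and 5.56%. Sct, which 66.7% of the enterochromaffin-type barcodes held, stood at 1403 CPM in the class and 1189 in those barcodes, a ratio of 1.18 whose interval (0.990 to 1.41) includes no difference. Their median of nuclear-encoded UMIs was 2154.5.

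**Figure D2:**
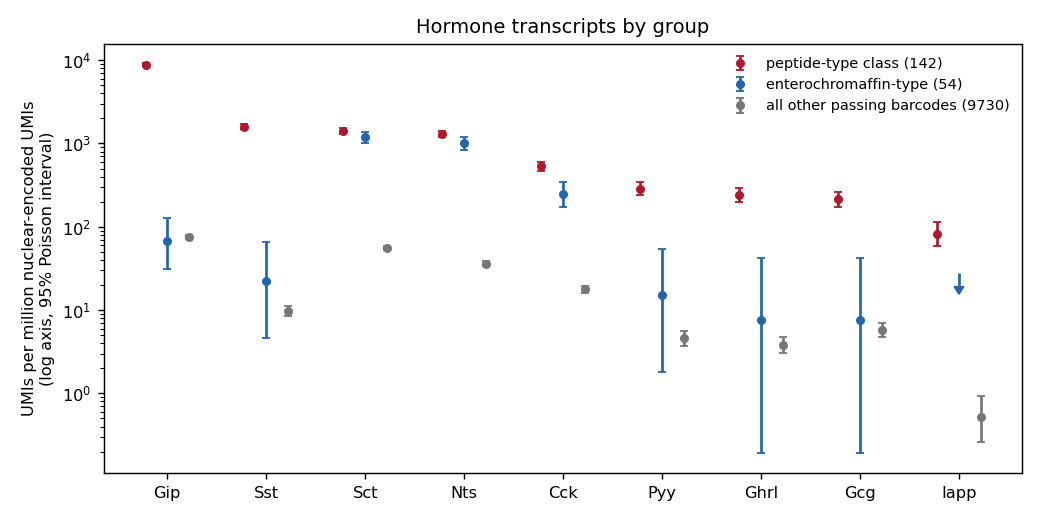
Hormone levels in CPM (UMIs per 1000000 nuclear-encoded UMIs, log axis) in the class, the enterochromaffin-type barcodes and all other barcodes, with 95% exact Poisson intervals and an arrow from the upper limit where no UMI was found. Gip is highest in the class at 8832, and Sct is the hormone whose class and enterochromaffin-type values lie closest, at 1403 and 1189.

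Hormones shared members in some pairs and hardly in others, counted at 3 or more UMIs of each. Sct was the most shared: 27 of the 55 Gip-positive members held it, 14 of 21 Nts-positive members, 12 of 19 Cck-positive members and 12 of 12 Pyy-positive members. Every one of the 3 Gcg-positive members held Cck, and all 4 Iapp-positive members held Sst. Ghrl met Sst in 5 of 10 Ghrl-positive members. Gip and Nts met in 1 member, while Sst met neither Nts nor Cck in any.

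By the hormone with the most UMIs, where that was at least 3 and not tied, Gip led in 50 members, Sst in 13, Nts in 13, Cck in 10, Sct in 8, Ghrl in 2 and Gcg in 2, and 44 (31.0%) had no leading hormone. In the Gip-led members, Gip made up 93.3% of the hormone UMIs, with 3 to 413 Gip UMIs and a median of 51. 30 of these also held Sct, 16 Cck, 10 Pyy and 5 Nts. In the Sst-led members, Sst took 77.8% of the hormone UMIs, all 9 Iapp-positive members fell among them, and 8 held Ghrl, whose product is best known from the stomach. Nts took 64.2% in the Nts-led members, and 12 of those 13 also held Sct (204 UMIs) and 4 Pyy (74 UMIs). Cck took 58% in the Cck-led members, of which 8 held Sct and 6 Ghrl. These groups were made from the same UMIs, so their hormone shares only describe them. Members with no leading hormone had a median of 2109.5 nuclear-encoded UMIs against 2646 in Gip-led members, but 4909.5 against 4725.5 UMIs of all kinds and 8939.5 against 8505 ATAC fragments. The part of depth in this grouping was not tested.

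Genes outside the hormone list separated the groups of members further. Each is compared here with all other members, each was chosen after its values were seen, and the genes of the rule are left out. In Gip-led members, Sphkap, which encodes an anchoring protein for protein kinase A, had 253 of the 295 UMIs of the class, in 46 of 50 members, a 10.9-fold higher level (7.84 to 15.5). Cnr1, the cannabinoid receptor, had 66 of 68 UMIs, 59.7-fold higher (15.9 to 504), and Ptger3, a prostaglandin E receptor, had 31 of 39, 7.02-fold higher (3.16 to 17.7). Dlgap2, a synaptic scaffold gene, had 71 of 72 UMIs, 129-fold higher (22.3 to 5148). Pkib, an inhibitor of protein kinase A, had 82 of 89 UMIs, 21.2-fold higher (9.84 to 54.4). Kcnj3, an inwardly rectifying potassium channel, had 422 of 537 UMIs, 6.64-fold higher (5.39 to 8.24). Some of these genes were also high in other hormone-led groups. Ptger3 stood at 195 CPM in Gip-led and 179 in Sct-led members (5 UMIs in 3 of 8). Kcnj3 stood at 2654 CPM, against 1597 in Nts-led and 1075 in Sct-led members, and Sphkap at 1591 against 860 in Sct-led members. Cnr1 (415 and 71.7), Dlgap2 (446 and 35.8) and Pkib (516 and 215) differed more from Sct-led members. The compared members include the 44 with no leading hormone.

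The Sst-led members carried the bile acid-sensitive channel gene Asic5, with 196 of the 229 UMIs of the class in 12 of 13 members, 60.4-fold higher than in other members (41.6 to 90.2). Isl1, a LIM homeodomain factor, was 2.52-fold higher there, whereas Kcnj3 had 1 UMI, Sphkap had 0 and Slc8a1, a sodium-calcium exchanger, had 4 of 467. Nts-led members were higher in the receptor tyrosine kinase Ret (14 of 29 UMIs, 12.7-fold, 5.66 to 28.1) and in the microtubule gene Map2 (49 of 127, 8.52-fold). The 10 Cck-led members were higher in enterocyte genes: Apoa4, an apolipoprotein gene, was 5.61-fold higher (4.08 to 7.66) with 67 UMIs in 3 of them, and Sis, a brush border disaccharidase gene, 2.36-fold (1.90 to 2.91) with 111 UMIs in all 10. Fabp1 was 4.02-fold higher (33 UMIs in 4 of the 10), Apoa1 3.57-fold (59 in 5) and Lct 5.16-fold, with its 11 UMIs all in 1 member. In 2 of the 10, the goblet list held 20 or more UMIs. The part of this RNA in the Cck-led group was not tested.

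Members with no leading hormone held nearly all of the RNA for Neurog3, the factor of the enteroendocrine progenitor: 26 of 27 UMIs, in 16 of these 44 members, 62.0-fold above the other members (10.2 to 2544). Sox4, a factor active early in the lineage, had 109 of 141 UMIs there (8.13-fold higher, 5.44 to 12.5), and Nkx2-2 had 67 of 132 (2.46-fold higher). Several genes of hormone processing and excitability were low in them: Cpe, which trims prohormones, had 9 of 304 UMIs (13.7-fold lower), Abcc8, a subunit of the ATP-sensitive potassium channel, 4 of 75 (7.44-fold lower), and Kcnj3 1 of 537. Isl1 had 31 of 252. The tuft marker Dclk1 had 52 of its 54 UMIs there, in 4 members. The 17 Neurog3-positive members held a median of 0 hormone UMIs (0 to 32), against 24 in the other 125, and no hormone was found in 9 of them. Sox4 stood at 1323 CPM in these 17 and 160 in the rest, Nkx2-2 at 670 and 238, Isl1 at 117 and 633, and Cpe at 83.7 and 772.

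**Figure D3:**
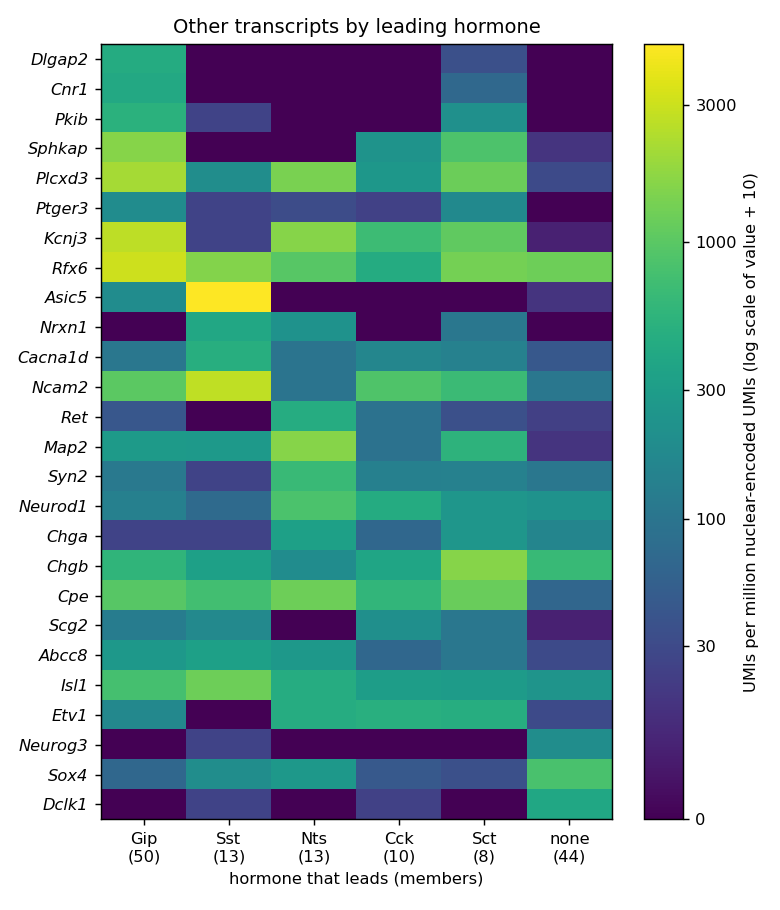
Level of selected genes (rows, CPM of nuclear-encoded UMIs plus 10, log colour scale) in members grouped by leading hormone (columns). Chga, Chgb, Neurod1 and Rfx6 are genes of the rule and are shown as a description. Cnr1 and Dlgap2 are high in the Gip-led column, Asic5 in the Sst-led column, and Neurog3 and Sox4 in the column of the 44 members with no leading hormone, where Kcnj3 had 1 UMI.

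Across all genes, 14938 had at least 20 UMIs over the passing barcodes. Of these, 1356 (9.08%) were at least 2-fold higher in the class than in all other barcodes with an interval that left out no change, and 852 (5.70%) were at least 2-fold lower. These calls were 61.4% higher ones per nuclear-encoded UMI, but 93.4% (2967 higher, 209 lower) per UMI of all kinds, mtDNA included. The median log2 ratio of all genes moved by 0.64 between these scales, from -0.09 to 0.55. In the 6 lists of enteroendocrine functions, 89 genes were higher on the nuclear scale, and 87 were when the 27 members rich in RNA of other lineages were left out. Of the 13 hormone genes tested, 10 were higher and none was lower.

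Transcription factors of the enteroendocrine lineage outside the rule were higher in the class for 16 of 24 tested members, beside 9.08% of all genes. Their median log2 ratio was 2.30 beside -0.09 over all genes, and none was lower. Isl1 had 252 UMIs in 91 members, 564 CPM against 1.36 in the other barcodes, a 413-fold difference (281 to 630), and 0 UMIs in the enterochromaffin-type barcodes, at least 24.98-fold lower than in the class. Etv1, an ETS factor, was 208-fold higher, with 83 UMIs in 33 members. Neurog3 was 75.5-fold higher, and Myt1 (110 UMIs in 60 members, 75.8-fold), Nkx2-2 (132 in 69, 57.1-fold), Insm1 (15 UMIs, 59.4-fold) and Runx1t1 (267 UMIs, 49.8-fold), zinc finger, homeodomain and corepressor genes of the lineage, lay in the same range. St18, a relative of Myt1, had 322 UMIs in 98 members, 10.6-fold higher than the others and 2.99-fold above the enterochromaffin-type barcodes. Against the latter, 5 of 20 factors were higher beside 6.56% of all genes, and 1 was lower (5.03% of all genes): Foxa1, 5.98-fold.

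**Figure D4:**
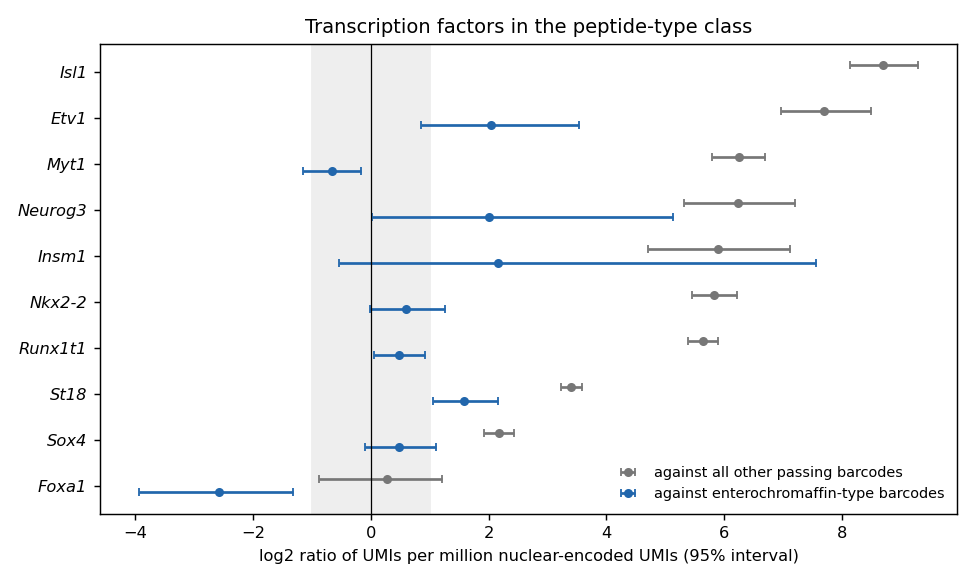
Log2 ratio of levels (UMIs per 1000000 nuclear-encoded UMIs) for 10 transcription factors described in the text, class against all other barcodes and class against enterochromaffin-type barcodes, with 95% intervals and the range below 2-fold shaded. Isl1 lies farthest above the other barcodes at 413-fold and has no point against the enterochromaffin-type barcodes, which held 0 UMIs, and Foxa1 lies below the enterochromaffin-type barcodes.

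Granule and hormone-processing genes were higher for 12 of 14 members of their list (median log2 ratio 5.16), beside 9.08% of all genes. None was lower, beside 5.70% of all genes. The limit of 20 UMIs includes those of the class, so a gene rare elsewhere could be tested because it is high in the class. Ptprn2, a dense-core granule membrane protein, was nearly universal with 1623 UMIs in 138 members, 22.5-fold higher than in other barcodes. Cpe had 304 UMIs in 86 members, 99.7-fold higher, and the granins Scg3 and Scg2 were 90.6-fold and 38.8-fold higher. The prohormone convertase Pcsk2 (22 UMIs in 10 members) was 174-fold higher, and Pcsk1 (179 UMIs in 71 members) 24.0-fold higher than the other barcodes but 2.74-fold lower than the enterochromaffin-type barcodes.

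Genes of electrical activity were higher for 17 of 21 tested and lower for 1, beside 9.08% and 5.70% of all genes. Kcnb2, a voltage-gated potassium channel gene, had 1812 UMIs in 137 members, 79.8-fold above the others, and Cacna1a, the pore of P/Q-type calcium channels, 1090 UMIs in 136 members, 24.9-fold. Cacnb2, a calcium channel subunit, was 319-fold higher (141 UMIs in 55 members), Kcnj3 284-fold (537 in 66) and Abcc8 223-fold (75 in 49). Against enterochromaffin-type barcodes the list split evenly, 5 higher and 5 lower of 15, beside 6.56% and 5.03% of all genes. Cacnb2 was 14.0-fold higher there and Abcc8 at least 7.43-fold, since those barcodes had 0 UMIs.

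Exocytosis genes were higher than in other barcodes for 20 of 26 tested, and none was lower, beside 9.08% and 5.70% of all genes. They were led by Vwa5b2 (149-fold), Rimbp2 (101-fold) and Cadps (97.4-fold), a priming factor for dense-core granules. Against enterochromaffin-type barcodes, 0 of 19 were higher and 6 lower, beside 6.56% and 5.03% of all genes. Among the 6 were the synaptic SNARE gene Snap25 (4.63-fold), the small GTPase gene Rab3c (20.4-fold) and the scaffold Dlg2 (75.5-fold, 20 UMIs against 449).

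Receptors and nutrient sensors were higher for 14 of 23 and lower for 1 per nuclear-encoded UMI, beside 9.08% and 5.70% of all genes. None was lower per UMI of all kinds. Asic5 was 573-fold above the other barcodes (229 UMIs in 21 members), Cnr1 269-fold (68 in 32), Ptger3 155-fold (39 in 25) and Gfra3, a receptor for the growth factor artemin, 154-fold (55 in 37). Ffar1, a long-chain fatty acid receptor, had 12 UMIs in 11 members, 57.1-fold higher. Against enterochromaffin-type barcodes 4 of 16 were higher and 8 lower, beside 6.56% and 5.03% of all genes. Trpm2, a cation channel gene, was 31.9-fold lower in the class than in those barcodes, and the irritant sensor Trpa1 had 7 UMIs, all in 1 member.

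Of the lists for other lineages, 11 of 12 goblet, 11 of 12 Paneth and 11 of 12 enterocyte genes were lower in the class per nuclear-encoded UMI, but 3, 11 and 5 per UMI of all kinds. Summed, the goblet list stood at 5860 CPM in the class and 17330 in the others, the Paneth list at 2267 and 14069, the enterocyte list at 3938 and 9888, and the tuft list at 338 and 262. The enteric neuron list gave 40 UMIs in 30 members, 89.5 CPM against 2.31 in the others. Of these UMIs 29 were of Ret, the only gene of that list with enough UMIs for a comparison (35.3-fold higher, 21.1 to 58.7), and Prph, Hand2 and Chrna3 had 0 UMIs in the class. The enteric glia list stood at 199 CPM against 237, the fibroblast and endothelium list gave 3 UMIs and the B and plasma cell list 1. The stem cell list had no gene past 2-fold of 8 tested. Messenger RNA of mtDNA took 6.65% of the UMIs of the class (6.60 to 6.70%), against 10.7% in the other barcodes and 7.60% in the enterochromaffin-type barcodes. All but 1 of the 13 mtDNA messenger RNAs were lower by over 2-fold per nuclear-encoded UMI, but none per UMI of all kinds, where their median log2 ratio went from -1.28 to -0.65. Of 12 proliferation genes, 2 were lower per nuclear-encoded UMI but none per UMI of all kinds. Of the 8 tested genes of the enterochromaffin list, 5 were higher and 1 was lower than in all other barcodes, but 6 were higher and none lower per UMI of all kinds. Of 11 tuft genes, 1 was higher, near the 9.08% of all genes, and 3 were per UMI of all kinds. The 1 was Pou2f3, the master factor of tuft cells, with 16 UMIs in 4 members. Dclk1 was held by 6 members. Of 17 stress response genes, 1 was higher and 1 lower. Over all genes, 9.08% were higher and 5.70% lower per nuclear-encoded UMI, the shares to set beside each list here. Per UMI of all kinds, 2967 of the 14938 genes were higher and 209 lower.

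Outside all lists, 25 genes were named for the largest ratios and 10 for the lowest. Sphkap (295 UMIs in 55 members) was 825-fold higher than in the other barcodes (506 to 1440), Dnah9, an axonemal dynein gene, 570-fold (168 UMIs in 64 members) and Plcxd3 286-fold (445 UMIs in 69 members). Scgn, the calcium sensor secretagogin, had 62 UMIs in 46 members, 211-fold higher (117 to 407). Pclo, a presynaptic scaffold, had 335 UMIs in 90 members and Gnao1, a G protein subunit, 200 UMIs in 82 members, 145-fold and 92.3-fold higher. Rbfox3 and Asic2, a neuronal splicing factor and an acid-sensing channel gene, were 296-fold and 288-fold higher. Slc26a4, an anion exchanger gene, was 219-fold higher, with 69 UMIs in 46 members. Some of the 25 genes were about as high in the enterochromaffin-type barcodes: Gnao1 stood at 448 CPM in the class and 399 there, and Slc8a1 at 1045 and 1114. Pclo was lower there, at 750 and 444 (log2 ratio 0.76, 0.35 to 1.18). Others were lower there: Dnah9 (376 and 30.1), Plcxd3 (996 and 45.2), Scgn (139 and 7.53) and Slc26a4 (154 and 45.2). Rbfox3 (125 and 15.1) and Asic2 (204 and 22.6) were lower too, and Sphkap had 0 UMIs there. Among the lowest, the Paneth cell defensin gene Defa29 was 12.7-fold lower, and Cubn and Ace, genes of the enterocyte brush border, 7.45-fold and 5.88-fold lower.

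Open chromatin, which the rule used only as a minimum depth, was counted as fragments in the deposited peaks. Of 142763 peaks with at least 50 fragments, 9632 (6.75%) were at least 2-fold higher in the class than in the other barcodes and 7467 (5.23%) lower. The peak at the start of Neurod1 (chr2:79456372-79457254, mm10) had 50 fragments in 43 members and 101 in all other barcodes, 30.0-fold higher (20.9 to 42.5). A peak at chr13:115346211-115347124, whose nearest gene in the annotation is Itga1 at 245 kb, had 77 fragments in the class and 180 in the others, 25.9-fold higher. The peak at chr2:147194822-147195793, 9.21 kb from the start of Nkx2-2, was 10.95-fold higher (62 and 343 fragments). The peak at the start of Insm1 was 6.53-fold higher (53 and 492). Levels per 1000000 fragments were also set beside the enterochromaffin-type barcodes. The Neurod1 start stood at 32.2 in the class and 38.7 there (16 fragments), and the Insm1 start at 34.2 and 43.6 (18 fragments). The Nkx2-2 peak stood at 40.0 and 33.9 (14 fragments), and the peak nearest Itga1 at 49.6 and 9.69 (4 fragments). Whether the class differs from the enterochromaffin-type barcodes at these peaks was not tested.

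Starts of other lineage genes followed. Isl1 was 5.79-fold higher (36 fragments in the class, 377 in the others), Rfx6 5.44-fold (31 and 345), Chgb 5.80-fold (38 and 397) and Scg2 5.37-fold (7 and 79). Of 76 peaks at the starts of the listed transcription factors, 26 (34.2%) were higher beside 6.75% of all peaks, and of the 481 peaks within 50 kb of these genes, 98 (20.4%). Among the 25 genes outside the lists, 23 had a peak at a start, and it was at least 2-fold higher for 18 and lower for none. The peak at Marchf4, a ubiquitin ligase gene, was 32.7-fold higher (40 and 74 fragments), Dnah9 24.4-fold and Slc8a1 15.9-fold.

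Hormone genes were compared with the transcription factors in the same readout. Within 50 kb of the hormone genes the summed fragments were 1.11-fold those of the other barcodes (1.06 to 1.17), and 11 of 116 peaks (9.48%) were higher, beside the 6.75% of all peaks. Around the transcription factors the sum was 1.30-fold (1.27 to 1.34), an interval that does not overlap that of the hormones. At gene starts, 4 hormone peaks gave 2.36-fold (1.45 to 3.65), with 1 of 3 tested peaks higher, and the transcription factor peaks 1.78-fold (1.68 to 1.88), and these intervals overlap. Gip, Sst, Sct, Ghrl, Gcg and Iapp have no deposited peak at their start, so the readout there rests on neighbouring peaks. A peak near Sct (chr7:141281360-141282198, 2.65 kb from the start) was 5.49-fold higher (22 and 243 fragments), a peak 8.06 kb from the start of Sst 4.04-fold (8 and 120), and the start of Cck 2.52-fold in sum (16 and 384). At the start of Nts, all 4 fragments of the class came from Nts-led members. Within 50 kb of Sst, the 13 Sst-led members had 0 fragments and the other 129 members had 13. Within 50 kb of their hormone gene, Gip-led members stood at 1.19 times the remaining members (0.946 to 1.49) and Sct-led members at 1.18 times (0.786 to 1.71). The start of Cck had 2 fragments in Cck-led members and 14 in the rest, 1.16 times (0.128 to 5.04). The intervals for Sst, Gip, Sct and Cck include no difference.

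**Figure D5:**
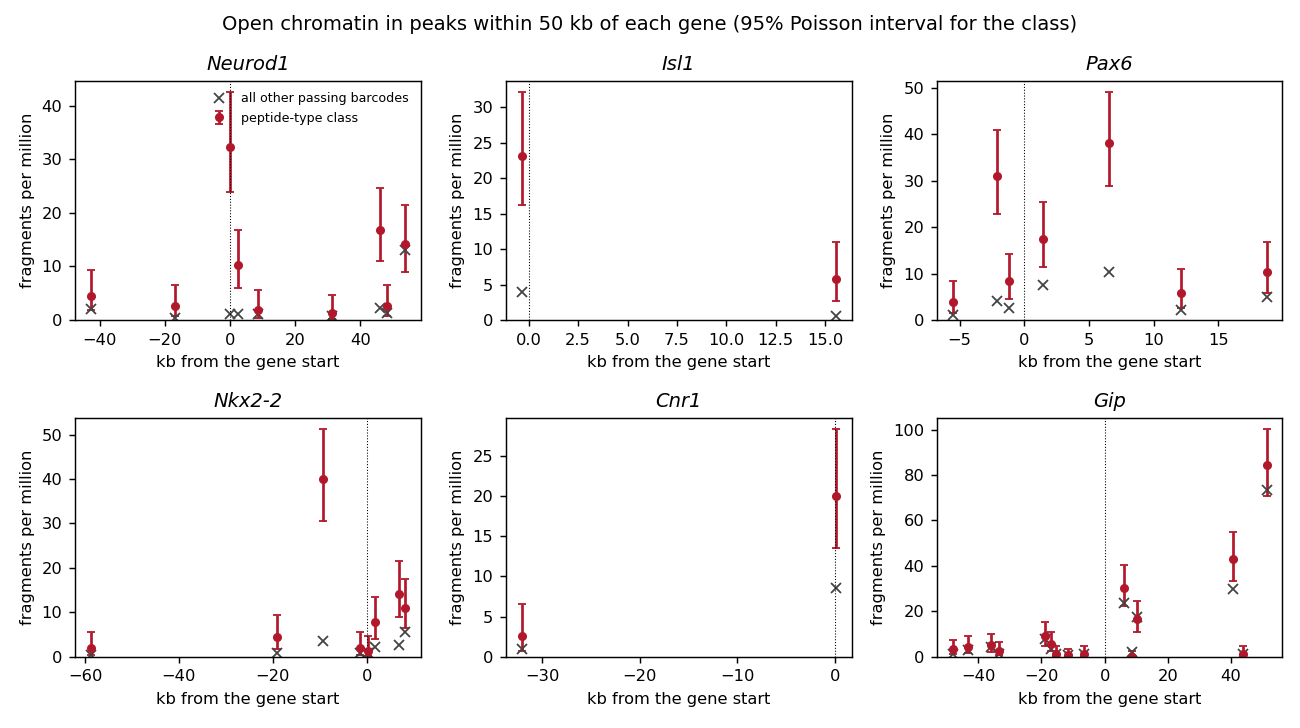
ATAC fragments (per 1000000 fragments of the group) in peaks by distance from the gene start (kb), class against all other barcodes, with 95% Poisson intervals for the class. The peak at the start of Neurod1 stands 30.0-fold above the other barcodes.

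Among the members, the start of Cnr1 had 24 fragments in Gip-led members and 7 in the other 92, 5.74-fold higher (2.40 to 15.8), and the start of Ptger3 16 and 3, 8.92-fold higher (2.55 to 47.8). Within 50 kb, Cnr1 was 5.65-fold higher (2.50 to 14.4) and Ptger3 1.82-fold (1.29 to 2.58). The single peak near Sphkap had 22 and 13, 2.83-fold higher (1.36 to 6.12). Around Neurog3, members with no leading hormone had 55 fragments within 50 kb and the others 78, 1.49-fold higher (1.03 to 2.13). At the start of Neurog3 they had 7 and the others 6, 2.46-fold (0.708 to 8.86), an interval that includes no difference. In the same members, fragments within 50 kb of Pax6 were 0.553 times (0.374 to 0.800) and of Neurod1 0.608 times (0.391 to 0.921) those of the others. Sox4 at 0.968 times (0.738 to 1.26), Nkx2-2 at 0.703 (0.456 to 1.06), Isl1 at 0.767 (0.361 to 1.52) and Insm1 at 0.763 (0.499 to 1.14) gave intervals that include no difference. At the gene starts, Pax6 (0.598 times, 0.339 to 1.01) and Neurod1 (0.595, 0.275 to 1.18) did so too. Dlgap2 was 1.31-fold higher (1.01 to 1.68) in Gip-led members within 50 kb, and its start peaks gave 2.30-fold (0.843 to 6.59), an interval that includes no difference. Kcnj3, Plcxd3, Pkib and Rfx6 gave intervals within 50 kb that include no difference between Gip-led and other members. The 13 Sst-led members held a median of 2776 fragments, and no difference around Asic5 was detectable at that depth (4 fragments within 50 kb). Within 50 kb of Adcy2 they had 2 fragments against 205 in the other members, 0.268 times (0.0322 to 0.979), while Isl1 and Ncam2 gave intervals that include no difference. At the start of Adcy2 they had 0 fragments against 18, with an interval that includes no difference.

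The 250 bases before a transcript start are shown for 6 genes on which these results turn: Neurod1, Isl1, Chgb and Scg2, whose start peaks were higher in the class, and Sst and Gip, the most abundant hormones, which have no start peak. They are from RefSeq (GRCm38.p6, the mm10 assembly) and run 5′ to 3′ on the strand of the gene. The start that the promoter table uses for Sst and Gip lies inside the gene interval given above, so the Sst window lies within that interval and the Gip window overlaps its first bases. Of 52 genes looked for, 45 matched by symbol. 4 motifs were searched on both strands: CAGATG (bound by NEUROD-type factors), TAATTA (a homeodomain core), AGATAA (bound by GATA factors) and TGACGTCA (the cyclic AMP response element). Matches are in capitals. The motifs were chosen after the genes were known, and a match only describes the letters. Of 32817 promoters of this length, 14.5% hold CAGATG, 4.85% TAATTA, 9.99% AGATAA and 1.55% TGACGTCA.
Neurod1 (chr2:79456637-79456886, minus strand): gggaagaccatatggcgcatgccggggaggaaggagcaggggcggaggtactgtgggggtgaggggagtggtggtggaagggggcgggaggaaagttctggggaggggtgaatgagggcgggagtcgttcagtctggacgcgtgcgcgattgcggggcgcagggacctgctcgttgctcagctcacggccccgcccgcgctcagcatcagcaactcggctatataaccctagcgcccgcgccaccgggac
Isl1 (chr13:116309689-116309938, minus strand): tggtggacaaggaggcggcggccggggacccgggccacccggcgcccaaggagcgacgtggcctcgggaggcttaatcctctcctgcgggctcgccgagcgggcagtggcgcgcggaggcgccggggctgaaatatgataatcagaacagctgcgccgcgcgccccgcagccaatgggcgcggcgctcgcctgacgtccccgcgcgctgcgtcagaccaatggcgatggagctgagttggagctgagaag
Chgb (chr2:132781392-132781641, plus strand): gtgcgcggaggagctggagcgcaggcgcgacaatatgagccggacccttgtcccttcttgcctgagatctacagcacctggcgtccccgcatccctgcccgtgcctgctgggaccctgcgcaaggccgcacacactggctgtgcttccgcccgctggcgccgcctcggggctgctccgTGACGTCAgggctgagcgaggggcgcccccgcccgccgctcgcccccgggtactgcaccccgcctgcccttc
Scg2 (chr1:79440027-79440276, minus strand): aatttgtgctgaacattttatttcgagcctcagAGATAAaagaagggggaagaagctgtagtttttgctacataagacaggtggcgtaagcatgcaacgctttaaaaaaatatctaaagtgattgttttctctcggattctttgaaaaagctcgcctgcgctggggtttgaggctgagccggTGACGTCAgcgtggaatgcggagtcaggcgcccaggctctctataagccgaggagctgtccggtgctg
Sst (chr16:23890845-23891094, minus strand): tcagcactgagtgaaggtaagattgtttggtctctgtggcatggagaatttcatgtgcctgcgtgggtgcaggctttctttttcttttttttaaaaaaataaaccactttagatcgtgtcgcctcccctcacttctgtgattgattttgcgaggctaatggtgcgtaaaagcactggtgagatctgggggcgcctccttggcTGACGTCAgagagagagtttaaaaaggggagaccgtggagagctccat
Gip (chr11:96024295-96024544, plus strand): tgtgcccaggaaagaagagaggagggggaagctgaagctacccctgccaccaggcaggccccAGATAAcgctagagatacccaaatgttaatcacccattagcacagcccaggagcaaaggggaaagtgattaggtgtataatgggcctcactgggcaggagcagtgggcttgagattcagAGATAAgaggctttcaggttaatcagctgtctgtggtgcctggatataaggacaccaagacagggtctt
Neurod1 and Isl1 hold none of the 4 motifs in this window. The cyclic AMP response element lies once in each of Chgb, Scg2 and Sst, and not in the hormone gene Gip. AGATAA lies 2 times in Gip and once in Scg2. Of the genes not shown, Pcsk1 and 1 promoter of Pax6 also hold the cyclic AMP response element, and Gcg holds CAGATG 2 times.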

How the data were processed

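The authors deposited raw counts from Cell Ranger ARC (2.0.2, mm10, per the submitters' processing notes) for 55401 genes and 146191 peaks in 12363 barcodes, with 71697164 UMIs and 197564789 peak counts. Of the peak values above 0, 87.6% were even, so fragments were taken as these values over 2, rounded upward. The members, gene lists and named genes were chosen with earlier results of these data known.

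UMIs were summed over each class and divided by its nuclear-encoded UMIs. Differences are ratios of these sums with a conditional exact binomial interval, levels have exact Poisson intervals and shares exact Clopper-Pearson intervals, all at 95% and for counting error only. With 1 animal no test was possible and no p-value is given. A gene with at least 20 UMIs, or a peak with at least 50 fragments, was called when its ratio passed 2-fold in either direction with an interval that left out no change. "At least" marks ratios against 0 UMIs, set to a floor of 3 counts. A start peak lies within 250 bases of the interval of a gene's transcript starts in the deposited peak annotation file, and 50 kb windows extend from RefSeq gene bodies. Levels are not divided by gene length, so genes are not compared with each other by level. Named genes were, from each list, up to 8 with the largest called ratios in either direction, hormones with at least 10 UMIs, and outside the lists the 25 highest and 10 lowest called ratios, predicted genes passed over, with at least 50 UMIs in the class for the highest. Genes without a stated strand of counting may share reads with overlapping or antisense genes (Pax6os1, for example).

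Doublets were scored with Scrublet in scanpy 1.11.5, which marked none automatically. The top 8% of scores held 854 of the 9872 passing barcodes and 23 of the 142 members (16.2% of the class), all kept except in an alternative. The part of doublets in the results was not tested beyond that alternative. The scripts (Python 3.11.15, numpy 2.4.6, scipy 1.17.1, pandas 2.3.3) were tested on simulated data.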

Additional observations from a re-analysis of the deposited data

How the results depend on the processing

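No paired analysis was possible because there is 1 animal and no result comes from a test. The class was also formed by other rules: summed rule genes of at least 3 (189 members) or 8 (120), no UMI of Tph1 or Lmx1a (133), a panel without Adcy2, Nrg1 and Cacna1c (106), no barcode over 80% mtDNA UMIs (141), the top doublet scores left out (119), and, added after seeing the data, the 27 members with RNA of other lineages left out (115) or the member with the most hormone UMIs left out (141). The summed hormones (log2 ratio 6.11 to the other barcodes) moved to 5.69 at 3 UMIs, 6.06 without Tph1 or Lmx1a, 5.96 with the smaller panel, 6.36 without high mtDNA, 6.38 without high doublet scores, 6.54 without other lineages, 6.03 without the top member, 6.75 per UMI of all kinds, 6.02 after thinning and 6.27 against barcodes with no rule gene UMI. The ratio to enterochromaffin-type barcodes (2.50) moved to 2.03 at 3 UMIs, 2.77 at 8, 2.68 with the smaller panel and 2.92 without other lineages. The share of members with a hormone (83.8%) was 74.6% at 3 rule gene UMIs and 71.1% when 2 hormone UMIs were required. The mtDNA messenger RNA share (6.65%) was 6.95% at 3 UMIs, 6.70% at 8, 6.44% without Tph1 or Lmx1a, 6.77% with the smaller panel, 6.54% without high mtDNA, and 5.97% both without high doublet scores and without other lineages.

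Fragments around transcription factor genes (log2 ratio 0.38) moved to 0.34 at 3 UMIs and without high mtDNA, 0.47 without high doublet scores, 0.45 without other lineages and 0.54 within 10 kb, and around hormone genes (0.15) to 0.24 within 10 kb. Genes called were 2967 higher and 209 lower per UMI of all kinds, and 2092 higher with no minimum above 1 UMI. With deposited peak counts in place of fragments, 15195 peaks were lower, since each fragment then counts about 2 times. Of 58 named genes, Defa38 reached a log2 ratio of 0.12 and Defa43 lost its call at -0.11 with the class at 3 UMIs, and the cause was not tested. The other 56 kept direction and call under the 9 alternatives run for single genes, those that change which barcodes enter. The other scales, comparison barcodes and minimums were not run for single genes.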
